A study of Mus musculus with 7 samples.

Results

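The transcripts of 10 acinar digestive enzyme genes were followed in RNA sequencing of mouse pancreatic spheroids. They are Ctrb1, Prss2, Cela2a and Cela3b (serine proteases), Cpa1 and Cpb1 (carboxypeptidases), Pnlip, Pnliprp1 and Pnliprp2 (lipases and their relatives) and Clps (the lipase cofactor). The genes were chosen by name, with earlier results of these data known. All 10 were matched to the 54446 genes of the count table. Of these 10, 2 (Ctrb1 and Pnliprp2) passed the filter on low counts and are among the 16438 genes tested. Ctrb1 and Pnliprp2 passed because the post-caerulein libraries were high enough, so the number that passed is not a result.

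Spheroids are 3-dimensional cultures of pancreatic epithelium, here from wild-type C57BL/6J mice. Untreated (3 libraries) and post-caerulein (4 libraries) mice were compared. Caerulein is a cholecystokinin analogue that overstimulates acinar cells and causes acute pancreatitis. The label of the second group places the cultures after that treatment, and the dose, the interval before culture, the age and the sex of the mice were not stated in the labels used. Both groups shared a serum-supplemented medium with EGF, hydrocortisone, cholera toxin, insulin, bovine pituitary extract and soybean trypsin inhibitor. The labels do not say whether the libraries of a group came from separate animals, so each p-value reflects only how far these libraries scatter, and that scatter may be technical.

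Acinar cells make up most of the exocrine pancreas and secrete digestive enzymes, largely as inactive precursors (zymogens) stored in granules. Trypsin activates the other zymogens in the gut. The genes are switched on together by the PTF1 complex, which contains Ptf1a and Rbpjl, with Nr5a2 and Bhlha15 (Mist1). Acinar cells placed in culture, or injured in pancreatitis, lose enzyme expression and take on duct-like features. Spheroid cultures of pancreas usually consist of duct-like cells.

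The keratins of ductal epithelium were abundant in all 7 libraries, while other ductal markers varied. The 10 ductal and epithelial markers, among them Krt19, Krt7, Epcam, Sox9, Cftr, Spp1 and Muc1, summed to 12670 to 13540 CPM (counts scaled to a library size of 1e+06) in untreated and 12450 to 19190 CPM in post-caerulein libraries. Most of these counts were Krt19, Krt7, Krt8 and Krt18. Cftr, the chloride channel of duct cells, was at 39.1 and 38.5 CPM in untreated 01 and 02, 1.02 CPM in untreated 03 and 4.66 to 4.76 CPM in post-caerulein libraries. The 10 enzyme genes summed to at most 17.9 CPM in any library. The libraries did not fall out by group alone. On the first principal component of log2 CPM (51.7% of the variance), untreated 03 and post-caerulein 04 lay at 70.4 and 58.4. Untreated 01 and 02 lay at the other end, at -67.7 and -63.4. Post-caerulein 01 to 03 lay between, at -10.8, 8.1 and 5. Untreated 01 with 02, and post-caerulein 02 with 03, were close pairs (biological coefficient of variation of 8.46% and 5.73%, against 22.0% or more for every other pair). Total counts ran from 34783738 to 46744497 reads, so that 1 read is worth 0.0210 to 0.0280 CPM and a count of 0 allows up to 3 reads, or 0.0630 to 0.0841 CPM. These limits and all 95% intervals on reads (exact Poisson, or exact binomial for ratios and shares) cover counting error only. The limit of 3 reads is a set value, and the exact 95% interval of a count of 0 reaches further, to 3.69 reads.

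The 250 bases before the transcription start are shown for the 2 enzyme genes that could be tested (Ctrb1, Pnliprp2). They are also shown for Prss2 and Cela2a, whose promoters held both an E-box and a TC-box, the motifs that make up a PTF1 site. No spacing between these motifs was required, so a whole PTF1 site was not shown. Sequences are from RefSeq (GRCm38.p6), on the gene's strand, 5′ to 3′. Capitals mark matches on either strand to CACCTG (an E-box), to TTTCCC (the TC-box) and to TATAAA (the TATA box). None of the matches overlap each other. Ctrb1 is at chr8:111691011-111691260 (minus strand), Pnliprp2 at chr19:58759473-58759722 (plus), Prss2 at chr6:41521526-41521775 (plus) and Cela2a at chr4:141826006-141826255 (minus), each before the start that RefSeq gives.

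Ctrb1: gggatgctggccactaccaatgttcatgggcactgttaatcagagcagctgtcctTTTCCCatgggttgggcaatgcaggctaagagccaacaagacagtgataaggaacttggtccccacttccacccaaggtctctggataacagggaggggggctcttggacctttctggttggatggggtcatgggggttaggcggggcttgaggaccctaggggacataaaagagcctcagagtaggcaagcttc
Pnliprp2: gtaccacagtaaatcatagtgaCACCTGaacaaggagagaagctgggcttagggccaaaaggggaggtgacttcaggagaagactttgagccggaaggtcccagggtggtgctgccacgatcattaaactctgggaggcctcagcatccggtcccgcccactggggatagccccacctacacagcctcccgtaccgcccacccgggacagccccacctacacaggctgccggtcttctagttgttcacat
Prss2: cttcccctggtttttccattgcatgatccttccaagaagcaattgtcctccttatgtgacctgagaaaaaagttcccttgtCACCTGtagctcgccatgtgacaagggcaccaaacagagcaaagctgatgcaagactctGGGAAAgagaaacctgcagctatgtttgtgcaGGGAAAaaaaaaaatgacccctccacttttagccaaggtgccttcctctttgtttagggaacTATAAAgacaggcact
Cela2a: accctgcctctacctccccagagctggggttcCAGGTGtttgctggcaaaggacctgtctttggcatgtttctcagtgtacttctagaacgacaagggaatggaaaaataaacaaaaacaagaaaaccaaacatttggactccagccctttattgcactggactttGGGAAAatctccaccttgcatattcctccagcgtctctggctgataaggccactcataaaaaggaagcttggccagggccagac

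Promoters were found for 9 of the 10 genes, all except Clps. CACCTG was in 5 of these 9 and in 17.2% of all 32851 promoters of the same length. TTTCCC was in 4 of 9, against 21.9% of all. Both were in the promoters of Prss2 and Cela2a, 2 of 9, against 3.61% of all. In Prss2 the E-box began 169 bases before the start and the TC-box 110 and 78 bases before it. In Cela2a they began 218 and 84 bases before the start. Ctrb1 held a TC-box match 195 bases before the start, Pnliprp2 an E-box match 228 bases before it, and Pnliprp1 held no match to any of the 3 motifs. TATAAA was in the promoters of Prss2 and Pnlip, against 12.4% of all. A match describes letters only and shows neither binding nor its absence.

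Enzyme reads were nearly absent from untreated spheroids and present at low levels in every post-caerulein library. The 10 genes together had 5, 6 and 21 reads in untreated 01, 02 and 03, and 309, 60, 139 and 852 reads in post-caerulein 01 to 04. As levels these were 0.124, 0.126 and 0.467 CPM, and 8.66, 1.66, 2.93 and 17.9 CPM. The groups did not overlap, and post-caerulein 04 and 01 were the highest. The mean of the post-caerulein libraries was 32.6 times that of the untreated ones (5.03 on the log2 scale), given as a description with no test. On the log2 scale it was 4.21 without post-caerulein 04 and 5.96 without untreated 03. In post-caerulein 04 the enzymes still took only 0.00182% of all reads. In bulk RNA, fewer cells of a type and less RNA per cell cannot be told apart.

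**Figure D1:**
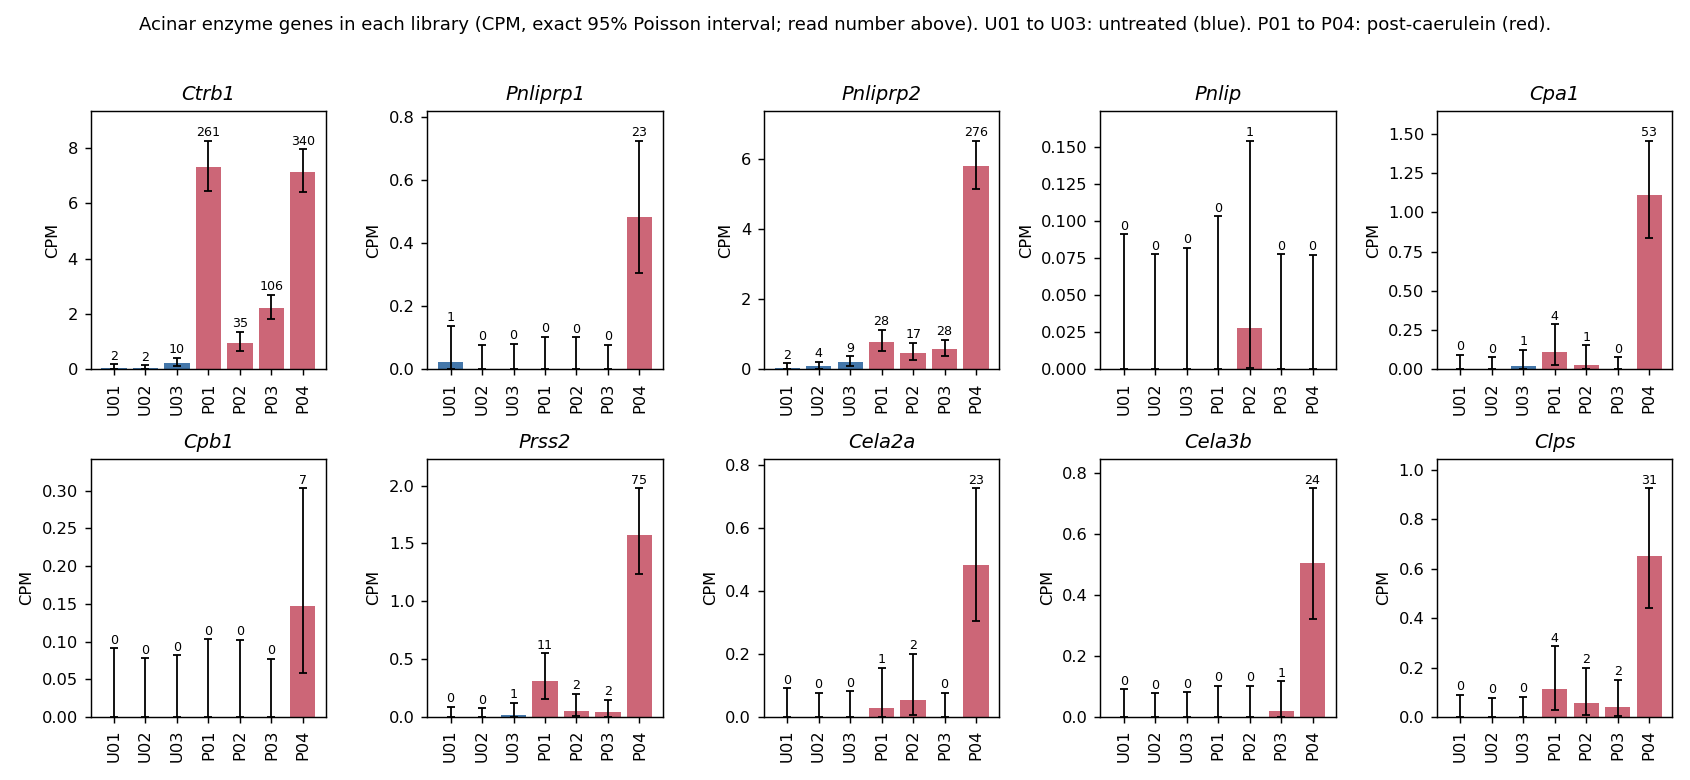
Level of each of the 10 enzyme genes in CPM (vertical axis, its own scale for each gene) in 3 untreated (blue) and 4 post-caerulein (red) libraries. Bars are single libraries, error bars exact 95% Poisson intervals, and the number above each is its reads; Ctrb1 is high in post-caerulein 01 and 04, while 8 of the other 9 genes are highest in post-caerulein 04 alone and Pnlip has 1 read.

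Ctrb1 (chromosome 8, 111686519 to 111691010, GRCm38) encodes chymotrypsinogen B, a zymogen whose active form cuts after aromatic residues. It had 2, 2 and 10 reads in untreated 01 to 03 (0.0495, 0.0422 and 0.222 CPM) and 261, 35, 106 and 340 reads in post-caerulein 01 to 04 (7.32, 0.971, 2.23 and 7.14 CPM). Every post-caerulein library was above every untreated one, with post-caerulein 01 and 04 about equal and post-caerulein 02 the lowest of the 4. The group means were 0.105 ± 0.102 CPM (SD, n = 3) and 4.42 ± 3.29 CPM (SD, n = 4).

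Across all genes, the comparison of the groups used the quasi-likelihood test of edgeR, adjusted by Benjamini-Hochberg, and the group as its only term. It gave Ctrb1 a log2 change of 5.35 ± 1.00 (SE) with an adjusted p of 0.185, and Pnliprp2 one of 4.06 ± 1.17 with an adjusted p of 0.307. Neither gene passed the threshold of 0.05. The test returns no SE, so each SE of an edgeR fit is the size of the change divided by the square root of the test statistic. The background was 0% (0 of 16438 genes called, with 1561 genes at an unadjusted p under 0.05, among them Ctrb1 and Pnliprp2 at 0.000778 and 0.00907). DESeq2 on the same design called 509 genes, Ctrb1 among them, and gave Pnliprp2 no adjusted p, and limma-voom called 0. The median log2 change of all tested genes was -0.02. Ctrb1 ranked 11th and Pnliprp2 21st of 16438 genes from the highest rise. Both had passed the filter only through the post-caerulein libraries, so these ranks are a description and no support for a rise.

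Of 2 designs fitted to the genes of the authors' deposited table, its values were obtained again with a block term that sets untreated 03 and post-caerulein 04 against the other 5 libraries, and not with the group alone. No label says what this block stands for. With it, edgeR's quasi-likelihood test called both tested enzymes higher. Ctrb1 rose by 5.59 ± 0.89 on the log2 scale (SE, adjusted p = 0.0378) and Pnliprp2 by 3.95 ± 0.47 (adjusted p = 0.0231). The background in this fit was 0.651% of genes called higher and 1.53% called in either direction. Both enzymes had passed the filter only through the post-caerulein libraries. Their calls set against this share are therefore not a result about the enzyme list. Over 34 alternatives for Ctrb1 and 33 for Pnliprp2 (adjusted p from 2.04e-11 to 1.00 and from 1.80e-11 to 1.00), 12 and 13 passed. Both calls of the fit with the block were lost without untreated 01, without untreated 02 or without post-caerulein 03, and with the close pairs summed. In the 5 libraries of the larger block alone both were called (adjusted p = 0.0205 and 0.00968, edgeR quasi-likelihood), where 7.35% of genes were called higher. The untreated libraries there are only the close pair 01 and 02, and post-caerulein 02 and 03 are the other close pair. These p-values thus rest in good part on the scatter within close pairs, which may be technical. The authors' deposited table lists Ctrb1 with a log2 fold change of 5.68 and a false discovery rate of 8.83e-12, and does not list the other 9 enzyme genes.

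**Figure D2:**
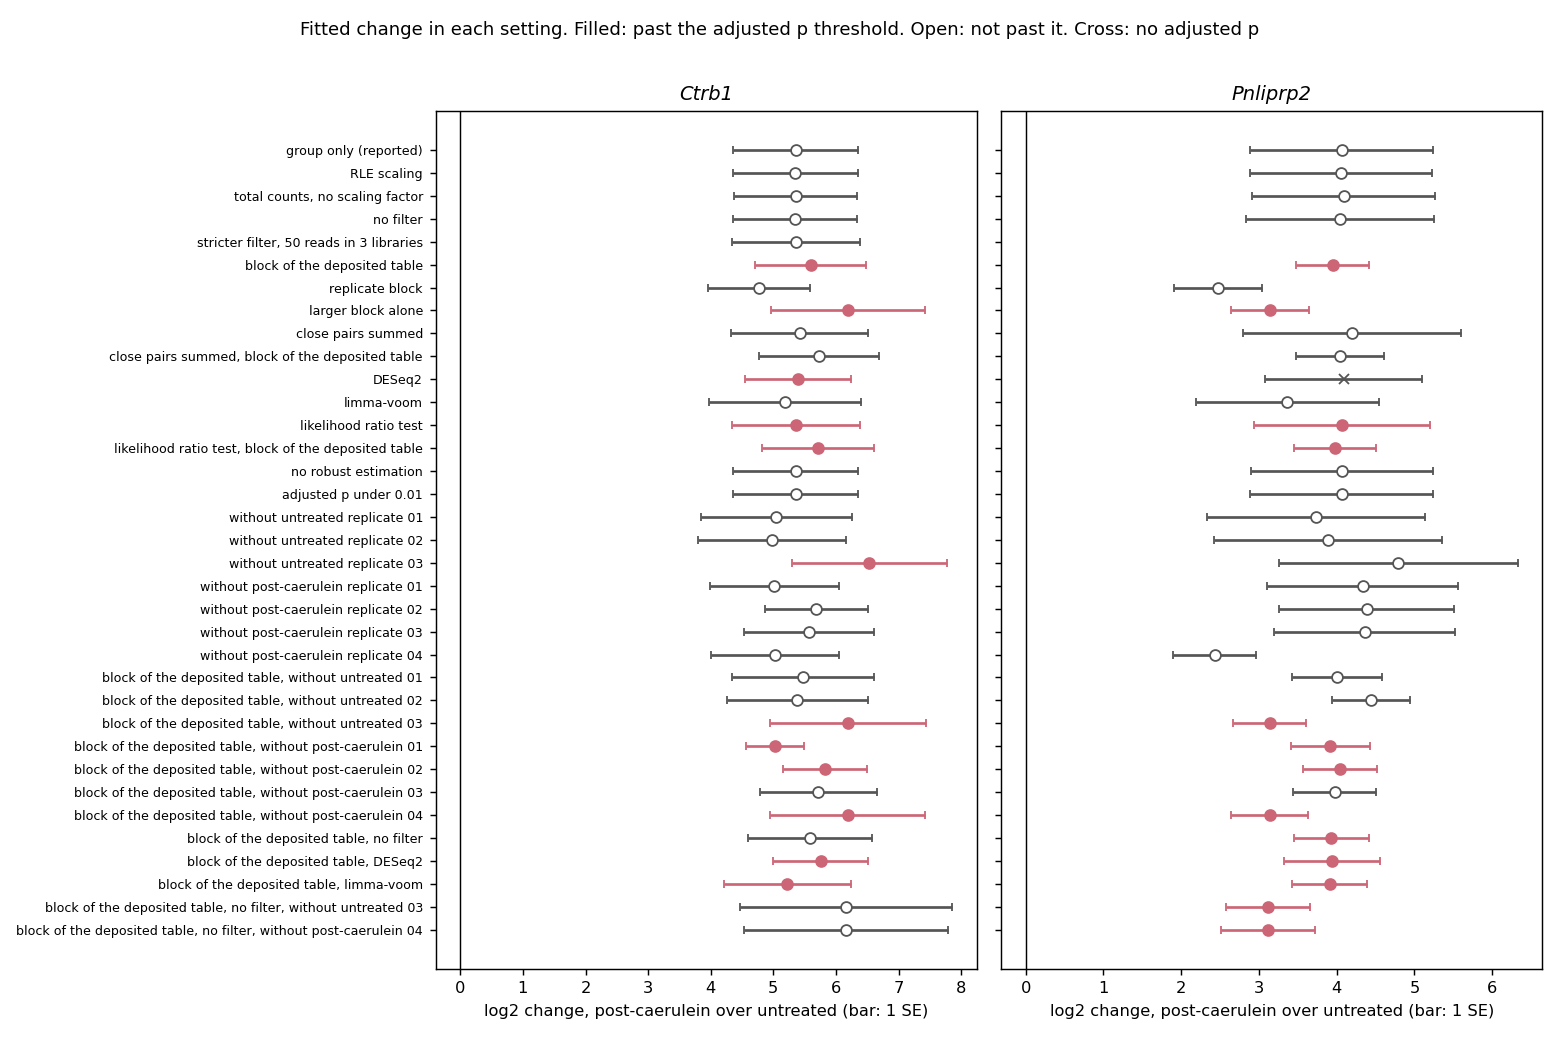
Log2 change of Ctrb1 (left) and Pnliprp2 (right), post-caerulein over untreated, in each setting (rows), with bars of 1 SE. Filled points passed the adjusted p threshold of that setting, open points did not, and the cross has no adjusted p; every point lies above 0, between 4.77 and 6.53 for Ctrb1 and between 2.43 and 4.79 for Pnliprp2, and only some are filled.

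Prss2 (chromosome 6, 41521787 to 41525079) encodes an anionic trypsinogen, one of a family of near-identical genes, so reads may be split or shared among copies. It had 0, 0 and 1 read in untreated and 11, 2, 2 and 75 reads in post-caerulein libraries (0.308, 0.0555, 0.0421 and 1.58 CPM). The groups did not overlap, but 83.3% of the post-caerulein reads came from post-caerulein 04. The ratio of summed reads, scaled by library size, was 71.7 (95% interval 12.5 to 2862), and 16.7 (2.57 to 704) without post-caerulein 04.

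The elastase genes were seen mainly in post-caerulein 04. Cela2a (chromosome 4, 141814962 to 141826160), an elastase precursor gene, had 0 reads in each untreated library and 1, 2, 0 and 23 in post-caerulein 01 to 04. It overlaps Casp9, a gene on the opposite strand with 10130 reads over the 7 libraries. No source used here gives the strand setting of the counting, so reads of the overlapping genes cannot be told apart. Cela3b (chromosome 4, 137420999 to 137430540), another elastase family member, had 0, 0 and 0 reads and then 0, 0, 1 and 24. Post-caerulein 04 held 88.5% of the Cela2a and 96.0% of the Cela3b reads of its group. Against a limit of 3 reads over the untreated group, Cela2a was at least 6.90-fold and Cela3b at least 6.64-fold higher in the post-caerulein group. With the counting error of both groups, the lower 95% limits were 5.22 and 5.01. Without post-caerulein 04, 3 and 1 reads were left, at or under that limit.

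Carboxypeptidases trim amino acids from the carboxyl end of peptides. Cpa1 (chromosome 6, 30639218 to 30645363) had 0, 0 and 1 read in untreated and 4, 1, 0 and 53 reads in post-caerulein libraries. Post-caerulein 03 had no Cpa1 read, so the groups overlapped. The ratio of summed reads was 46.2 (95% interval 7.97 to 1855) with all libraries and 5.57 (0.623 to 264) without post-caerulein 04, an interval that includes 1. Cpb1 (chromosome 3, 20248264 to 20275733) had 7 reads, all in post-caerulein 04, and was at least 1.86-fold higher in the post-caerulein group against the limit of 3 reads, with a lower 95% limit of 1.15 from the counting error of both groups.

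Among the lipase genes, Pnliprp2 (chromosome 19, 58759723 to 58777533), which encodes a lipase that also acts on galactolipids and phospholipids, was the only one with reads in every library. Its reads were 2, 4 and 9 in untreated libraries (0.0495, 0.0843 and 0.200 CPM) and 28, 17, 28 and 276 in post-caerulein ones (0.785, 0.471, 0.590 and 5.80 CPM). The groups did not overlap, post-caerulein 01 to 03 lay close together, and post-caerulein 04 stood far above them. The group means were 0.111 ± 0.0789 CPM (SD, n = 3) and 1.91 ± 2.60 CPM (SD, n = 4). Without post-caerulein 04 the ratio of summed reads fell from 18.5 (95% interval 11.1 to 33.5) to 5.42 (3.08 to 10.2), and the log2 change of the fit without the block from 4.06 to 2.43 ± 0.54 (SE).

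Pnliprp1 (chromosome 19, 58728887 to 58744169), a lipase relative with little or no known lipase activity, had 1 read in untreated 01 and 23 in post-caerulein 04, and none elsewhere. The ratio of summed reads was 18.3 (95% interval 2.97 to 755), and no post-caerulein read was left without post-caerulein 04. Pnlip (chromosome 19, 58670365 to 58681786), the main pancreatic triglyceride lipase, had 1 read in all 7 libraries, in post-caerulein 02. At 0 reads, post-caerulein 04 allows up to 0.0630 CPM of Pnlip by the limit of 3 reads, against 5.80 CPM of its relative Pnliprp2. Clps (chromosome 17, 28558149 to 28560766) encodes colipase, which anchors pancreatic lipase to fat droplets. It had 0 reads in each untreated library and 4, 2, 2 and 31 in post-caerulein 01 to 04 (0.112, 0.0555, 0.0421 and 0.651 CPM). Clps was at least 10.4-fold higher in the post-caerulein group against the same limit of 3 reads, and at least 2.97-fold higher without post-caerulein 04. The lower 95% limits with the counting error of both groups were 8.03 and 1.90.

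Groups without overlap were thus seen for 4 of the 10 genes, Ctrb1, Pnliprp2, Prss2 and Clps, against 4.67% of the 16438 tested genes that lay higher in the post-caerulein libraries without overlap. Of these 4, Prss2 and Clps were under the filter and are not in that background, so the shares are not like for like. Few reads separate these 2 genes: Prss2 had 1 read in untreated 03 against 2 each in post-caerulein 02 and 03. Clps had 0 in each untreated library against 2 each in post-caerulein 02 and 03. The counting intervals of these libraries overlapped for both genes. When every gene with a read was tested, with the block, 4 of 10 enzyme genes were called higher: Pnliprp2, Prss2, Clps and Cpa1 (adjusted p = 0.000434, 0.00560, 0.0122 and 0.0180, edgeR quasi-likelihood). The background there was 0.848% called higher, and Ctrb1 missed the threshold (adjusted p = 0.0722). Without post-caerulein 04 in that setting, and likewise without untreated 03, Pnliprp2 was the only enzyme gene called. Over all genes, 1352 of 30913 were called higher without post-caerulein 04 and 1361 of 30792 without untreated 03. Leaving out either library reduces the fit to the larger block, so these are not separate checks. The other 6 genes, Ctrb1 among them, were not called with the block and no filter. The members and the block were chosen with earlier results of these data known. The background without a filter also includes genes with very few reads. The 4 of 10 called are therefore not a result about the enzyme list.

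Compared per kilobase of exon within post-caerulein 04, the enzymes fell into a clear order at the top. Ctrb1 was at 8.14 (95% interval 7.29 to 9.05) CPM per kilobase, Pnliprp2 at 3.70 (3.28 to 4.16) and Prss2 at 1.93 (1.52 to 2.42), and these intervals did not overlap each other. Clps followed at 1.07 (0.724 to 1.51), then Cpa1 at 0.703, Cela3b at 0.545, Cela2a at 0.452 and Pnliprp1 at 0.298, each with an interval that overlapped its neighbour's. Cpb1 was at 0.0541 (0.0218 to 0.112) and Pnlip at 0. The order is that of 1 library and of the authors' exon lengths.

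**Figure D3:**
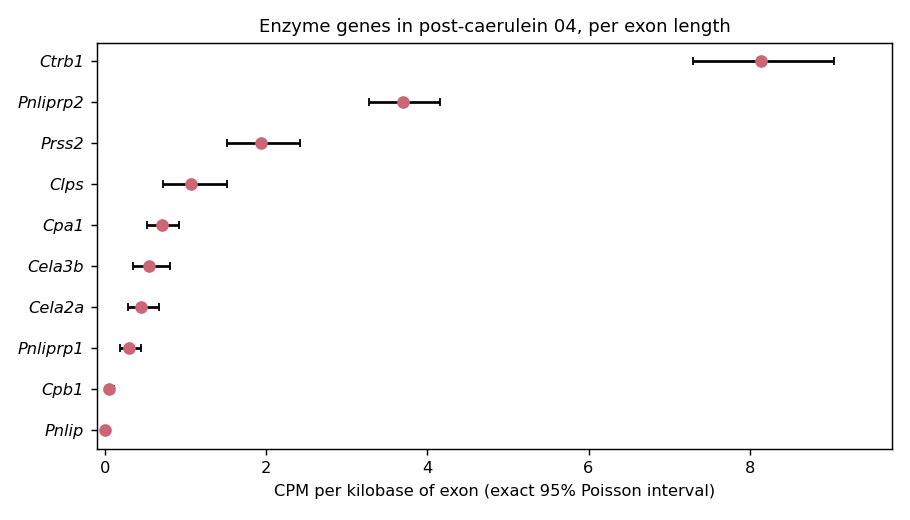
Level of the 10 enzyme genes in post-caerulein 04 in CPM per kilobase of exon (horizontal axis), with exact 95% Poisson intervals as bars. Ctrb1, Pnliprp2 and Prss2 stand apart at 8.14, 3.70 and 1.93, Clps to Pnliprp1 overlap with their neighbours, and Cpb1 and Pnlip are near 0.

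The makeup of the enzyme reads also differed among post-caerulein libraries. Ctrb1 took 84.5% of enzyme reads in post-caerulein 01 (95% interval 79.9 to 88.3%), 58.3% in 02 (44.9 to 70.9%), 76.3% in 03 (68.3 to 83.1%) and 39.9% in 04 (36.6 to 43.3%). The share in post-caerulein 04 lay below the intervals of the other 3. There were 9.32 Ctrb1 reads for each Pnliprp2 read in post-caerulein 01 (6.30 to 14.3), 2.06 in 02 (1.12 to 3.92), 3.79 in 03 (2.48 to 5.97) and 1.23 in 04 (1.05 to 1.45). Ctrb1 was thus at 7.32 and 7.14 CPM in post-caerulein 01 and 04, while Pnliprp2 was at 0.785 and 5.80 CPM.

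The 8 genes other than Ctrb1 and Pnliprp2 had 20, 8 and 5 reads in post-caerulein 01 to 03 and 236 in post-caerulein 04. Scaled by library size, post-caerulein 04 was 17.9 times the other 3 together for these 8 genes (95% interval 12.4 to 26.6). For Pnliprp2 the same ratio was 9.47 (7.29 to 12.4), and for Ctrb1 it was 2.12 (1.83 to 2.45). These ratios compare libraries of 1 group and not conditions. In untreated 03, which lay near post-caerulein 04 on the first principal component, the same 8 genes had 2 reads.

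**Figure D4:**
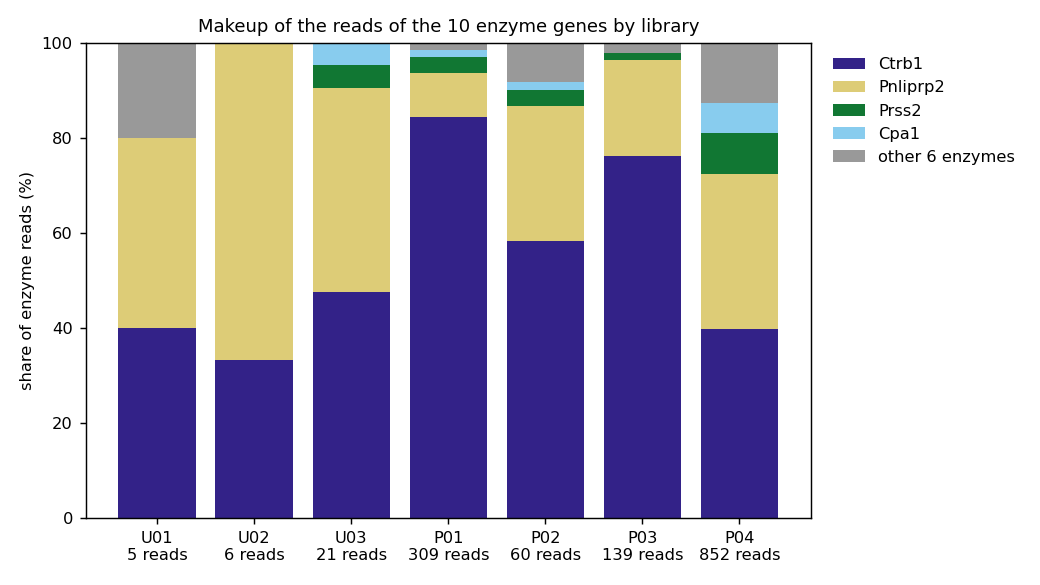
Share of the reads of the 10 enzyme genes (vertical axis, %) taken by Ctrb1, Pnliprp2, Prss2, Cpa1 and the other 6 genes in each library (U, untreated; P, post-caerulein), with the number of enzyme reads under each bar. Ctrb1 takes 84.5% in post-caerulein 01 and 39.9% in post-caerulein 04, and the untreated bars rest on 5 to 21 reads.

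Other genes of the acinar programme were read from lists of 22 further digestive enzymes, 10 zymogen granule and secretory genes and 4 transcription factors. Of these 36 genes 7 could be tested and 0 were called, with or without the block (background 0% and 1.53%). Of the 7 changes 6 were positive, with a median of 0.48 on the log2 scale against -0.02 for all tested genes. Cela1, an elastase gene, had the most reads of the 22 further enzymes, with 0.569, 0.653 and 0.400 CPM in untreated 01 to 03 and 1.49, 0.610, 1.05 and 1.51 CPM in post-caerulein 01 to 04. Its groups overlapped, and its log2 change was 1.10 ± 0.40 (SE, adjusted p = 0.408, edgeR quasi-likelihood). Try5, a trypsinogen gene of the same family as Prss2, had 0, 0 and 4 reads in untreated and 8, 0, 8 and 71 in post-caerulein libraries. It was called higher only with the block and no filter (adjusted p = 0.0283, edgeR quasi-likelihood), and not in that setting without untreated 03 (0.113) or without post-caerulein 04 (0.0998). Its log2 change was 4.25 ± 0.90 (SE) with all libraries, 5.54 ± 1.86 without untreated 03 and 5.52 ± 1.87 without post-caerulein 04.

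The pancreatic amylase genes Amy2a1 to Amy2a5 had 0 reads in all 7 libraries, as did Prss1, Prss3, Try10, Gm5771, Cela3a and Rnase1. The Amy2a genes are near-identical copies, and no source used here gives how reads matching several genes were counted, so these zeros are uncertain. Amy1, the salivary-type amylase gene, was at 6 to 12 reads in untreated and 7 to 17 in post-caerulein libraries. Ctrl, a chymotrypsin-like gene, had a log2 change of 0.43 ± 0.41 (SE) and did not pass (adjusted p = 0.847, edgeR quasi-likelihood).

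Among the granule genes, Gp2, the major glycoprotein of the zymogen granule membrane, had 0 reads in untreated and 5, 4, 1 and 43 in post-caerulein libraries. Its groups did not overlap, but the 1 read of post-caerulein 03 lies within the limit of a count of 0. It was called only with the block and no filter (adjusted p = 0.0104, edgeR quasi-likelihood), and not in that setting without untreated 03 (0.0630) or without post-caerulein 04 (0.121). Its log2 change was 6.91 ± 1.23 (SE) with all libraries and 4.92 ± 1.62 and 4.90 ± 1.84 in those 2 settings. Cuzd1, another granule membrane protein gene, had 2, 7 and 10 reads and then 5, 11, 6 and 56, so that post-caerulein 04 alone stood out. Sycn, the gene of syncollin, ran the other way among the post-caerulein libraries. Its reads were 2, 1 and 2 in untreated and 7, 15, 26 and 4 in post-caerulein 01 to 04. They were lowest of these 4 in the library with the most enzyme reads. Its groups did not overlap, but few reads separate them (2 in untreated 01 and 03 against 4 in post-caerulein 04). It was called in the larger block alone (log2 change 3.43 ± 0.75, SE, adjusted p = 0.0285, edgeR quasi-likelihood), a fit that holds both close pairs. Pdia2 and Tmed6 had 21 and 14 reads in the untreated and 25 and 30 in the post-caerulein group.

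None of the 4 transcription factors separated the groups. Ptf1a had 0 reads in untreated libraries and 2, 0, 1 and 0 in post-caerulein ones, with none in post-caerulein 04. Rbpjl, its partner in the PTF1 complex, had 1, 4 and 26 reads in untreated and 4, 2, 3 and 17 in post-caerulein libraries, highest in untreated 03 and post-caerulein 04. Bhlha15 was at 1.48, 0.759 and 0.889 CPM and then 0.561, 1.36, 1.35 and 0.630 CPM. Nr5a2 had the most reads of the 4, at 18.0, 16.5 and 7.74 CPM in untreated 01 to 03 and 15.3, 24.4, 24.5 and 15.5 CPM in post-caerulein 01 to 04. The log2 changes of Bhlha15 and Nr5a2 were -0.10 ± 0.44 and 0.50 ± 0.33 (SE), and neither passed (adjusted p = 0.978 and 0.736, edgeR quasi-likelihood). The change of Bhlha15 turned sign in several settings.

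Stomach and gut digestive genes were set beside them. Ctse, the gene of the protease cathepsin E, had 177.7, 188.7 and 1034 CPM in untreated 01 to 03 and 525 to 699 CPM in post-caerulein libraries, with overlapping groups. Gif, Pga5 and Pgc, genes of gastric secretory cells, had 20, 12 and 10 reads over the 7 libraries, Lipf 2 and Tmprss15, the gene of the trypsinogen-activating enteropeptidase, 1.

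Of the marker lists of other pancreatic cells, the islet sum alone did not overlap between the groups, and only narrowly. The 7 islet markers, of which 6 had a read and Ppy had none, summed to 0.0247 to 0.400 CPM in untreated libraries, to 3.11, 3.69 and 4.51 CPM in post-caerulein 01 to 03, and to 0.462 CPM in post-caerulein 04. Islet genes were thus lowest in the post-caerulein library where the enzymes were highest. Untreated 03 had 18 islet reads and post-caerulein 04 had 22, with overlapping counting intervals. Some single islet genes overlapped between the groups and some did not. The 7 fibroblast markers, all with reads, summed to 0.126 to 21.1 CPM in untreated and 2.97 to 7.27 CPM in post-caerulein libraries, and untreated 03 was the highest. The 4 endothelial markers summed to 1.20 to 2.63 and 0.392 to 1.30 CPM. The 6 leukocyte markers, 5 of them with a read, summed to 20.7 to 98.2 and 11.9 to 35.6 CPM, with Cd68 at up to 97.9 CPM, while Ptprc had at most 5 reads in a library. The fibroblast, endothelial and leukocyte sums overlapped between the groups. Untreated 03 was also the highest for the leukocyte sum, but Cd68 made up 97.9 of its 98.2 CPM. The part of other cells in the enzyme result was not tested.

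**Figure D5:**
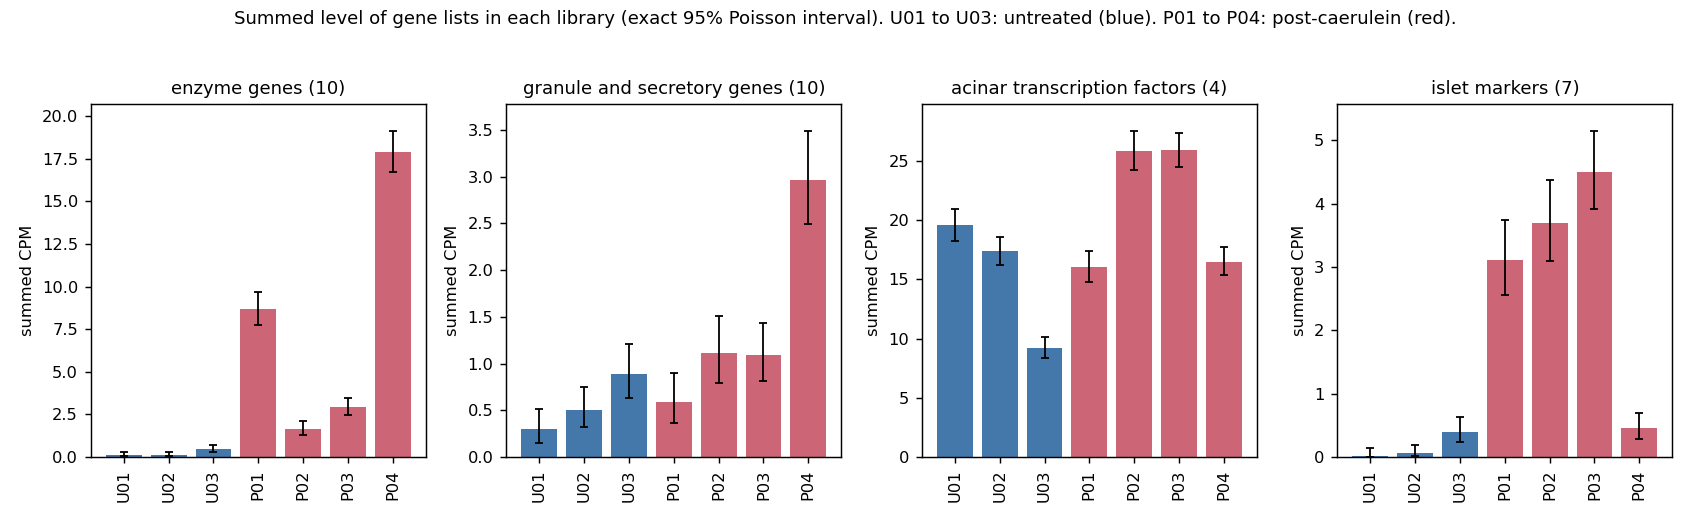
Summed CPM (vertical axis, its own scale in each panel) of the 10 enzyme genes, 10 granule and secretory genes, 4 acinar transcription factors and 7 islet markers in 3 untreated (blue) and 4 post-caerulein (red) libraries, with exact 95% Poisson intervals. The enzymes peak in post-caerulein 04 at 17.9 CPM, the islet markers in post-caerulein 03 at 4.51 CPM, and the transcription factors overlap between the groups.

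The 5 named genes whose level over the 7 libraries was most like the enzymes' sum were Reg3b (r = 0.986), Scly (0.986), Ahi1 (0.979), Slco2a1 (0.972) and Ccdc89 (0.972), by Pearson correlation of log2 CPM. Reg3b, which encodes a secreted lectin, was at 0 CPM in untreated 01 and 02 and reached 0.0220 CPM in untreated 03. Post-caerulein 01 to 04 had 2.16, 0.305, 0.590 and 2.02 CPM of it. It shared with Ctrb1 the high values in post-caerulein 01 and 04. Slco2a1, a prostaglandin transporter gene, ran from 16.0 to 41.6 CPM in untreated and from 74.3 to 139 CPM in post-caerulein libraries, and Scly from 21.8 to 26.1 and from 28.6 to 36.0 CPM. The likeness rests on 7 libraries that share groups and depth, and is a description only.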

How the data were processed

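Polyadenylated RNA of 7 spheroid libraries was analysed, grouped by sample title. The authors deposited a table of unnormalised gene counts, with featureCounts (0.6.1), edgeR (3.2.2) and GRCm38 (mm10) named in the submitters' processing notes. Aligner, strand setting and treatment of reads matching several genes were not given in the sources used here. A second deposited table holds log2 fold changes, mean log2 CPM, a likelihood ratio score, p-values and false discovery rates, per the file headers.

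Counts were filtered with filterByExpr (minimum count 10, total 15), scaled by TMM and tested with edgeR 4.0.16 (quasi-likelihood, robust, two-sided, Benjamini-Hochberg over 16438 genes, threshold 0.05). Printed CPM are per TMM-scaled library size. The SE of each edgeR fit was calculated back from its test statistic, while DESeq2 and limma-voom gave their own. A refit of the deposited table gave its log2 fold changes to within 3.16e-08 with the block and differed by up to 3.98 without it. Alternatives used DESeq2 1.42.0, limma-voom (limma 3.58.1), other scalings and filters, blocks, left-out libraries and summed close pairs. Intervals came from scipy 1.17.1. The fit was tested on simulated data.

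The members, lists and block were chosen with earlier results of these data known. Of the gene IDs 54409 had a symbol, and all 86 list entries matched. The text names all 10 enzymes, each called list gene, every listed transcription factor, up to 5 more per list by reads, and the 5 genes most alike. Genes listed at 0, and the genes with few reads from the stomach and gut list, were named after their values were seen. Some listed genes enter the list counts and sums but are not reported here by name.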

Additional observations from a re-analysis of the deposited data

Results flagged for a closer look

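In the 4 post-caerulein libraries, 8 of 11 values examined (10 genes and their sum) had a highest library set far apart from the other 3, by a measure that chance exceeds in about 1 in 20 groups of continuous values. That rate does not hold for these low counts: Pnlip, Cpb1 and Pnliprp1 have post-caerulein reads in 1 library only and are set apart by construction, and the genes share the same libraries. The gap to the next library took most of the range in each. Post-caerulein 04 was that library for 7 genes, at 5.80 CPM for Pnliprp2, 1.11 CPM for Cpa1, 0.651 CPM for Clps, 0.504 CPM for Cela3b, 0.483 CPM for both Pnliprp1 and Cela2a and 0.147 CPM for Cpb1. Pnlip was set apart by its only read, in post-caerulein 02 (0.0277 CPM). Ctrb1, Prss2 and the sum of the 10 genes were not set apart by this measure. The untreated group, with 3 libraries, was not examined in this way.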

How the results depend on the processing

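The number of enzyme genes called was 0 with the group alone. It was 2 with the block of the deposited table, in the larger block alone, by the likelihood ratio test with or without the block, by DESeq2 or limma-voom with the block (added after seeing the data), and with the block without untreated 03 or post-caerulein 01, 02 or 04. It was 1 by DESeq2, and 0 to 1 with each library left out of the fit on the group alone, the 1 being Ctrb1 without untreated 03. With the block and no filter it was 4, and 1 in that setting without untreated 03 or without post-caerulein 04 (added after seeing the data). Other acinar genes called were 0, but 1 (Sycn) in the larger block alone, with the block without untreated 03, and with the block and no filter without untreated 03 or post-caerulein 04, and 2 (Gp2 and Try5) with the block and no filter. All genes called were 0 with the group alone and 23 with no filter, 509 by DESeq2, 343 by the likelihood ratio test (1227 with the block) and 0 to 1149 with each library left out (57 without post-caerulein 04, 1149 without untreated 03). They were 251 with the block, 2247 in the larger block, 1366 by DESeq2 and 358 by limma-voom with the block, and 602 with the block and no filter (2667 without untreated 03, 2660 without post-caerulein 04). With the block they were 2267 without untreated 03, 131, 29, 3 and 2086 without post-caerulein 01 to 04, and 0 without untreated 01 or 02. The cause was not tested, except that leaving out either library of the smaller block reduces the fit to the larger one.

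The log2 ratio of the enzymes' summed CPM was 5.03 and stayed between 4.21 and 5.96 with each library or each gene left out. Without Ctrb1 and without post-caerulein 04 (added after seeing the data) it was 2.76. The small change of Bhlha15 (-0.10) turned sign in some settings and was at 0.0513 with the replicate block, 0.001 in the larger block, -0.2953 to 0.2413 with each library left out, and, with the block of the deposited table, 0.11 without untreated 01 and 0.0514 without post-caerulein 01. With the replicate block (replicate number as a term) 0 enzyme genes were called, and no call changed. The log2 change was 4.77 for Ctrb1, fell from 4.06 to 2.48 for Pnliprp2 and from 1.63 to 0.45 for Cuzd1. Post-caerulein 04 has no untreated library of the same number, so it adds nothing to the log2 change in this fit. With the group alone and without post-caerulein 04, the change was 5.02 for Ctrb1 and 2.43 for Pnliprp2. Same-numbered libraries did not pair (correlations of deviations 0.37, 0.14 and -0.21, and 2 of 6 libraries matched their own number best). Levels under about 0.08 CPM lie within the limit of a count of 0, so absence was not shown for genes without reads.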
